A study of Mus musculus with 2 samples.

Results

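The brush border of the colon is described here through 10 genes, Vil1, Ezr, Espn, Myo1a, Myo7b, Pls1, Eps8, Cdhr2, Cdhr5 and Ush1c, on arrays of the whole colon of mice labelled as lacking the receptor EP4 in the gut epithelium (EP4 cKO) and of their controls (Villin-Cre). The genes were taken as listed for their known roles in microvilli, and every gene probe whose RefSeq transcript belongs to a listed gene was used, which gave 14 probes for 10 of the 14669 genes that had a value. All 14 probes were well above background on both arrays, so no member was lost to a filter on low signal and none of their ratios is a bound.

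EP4 cKO mice carried the genotype Villin-Cre; EP4flox/flox, in which the promoter of Vil1 drives the recombinase Cre in intestinal epithelial cells, and Cre deletes the floxed sequence of the gene Ptger4, which encodes the prostaglandin E2 receptor EP4. The control mice carried Villin-Cre alone, so both groups made Cre from the promoter of one of the genes described here. All mice were of the C57BL/6 strain and, by the methods of the study, 8 weeks old. The labels describe the RNA of each genotype as combined from 3 pools of colon, and 1 array per genotype was analysed here. No difference therefore has a replicate check, no test was made and no p-value is given.

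Microvilli are finger-like protrusions of the apical membrane, each held up by a core of parallel actin filaments. Villin (Vil1), espin (Espn) and plastin 1 (Pls1, also called fimbrin) bundle these filaments, and Eps8 caps and bundles them at the tip. Ezrin (Ezr) ties the membrane to the core, and myosin 1a (Myo1a) is a motor that links the membrane to it from within. At their tips, neighbouring microvilli are joined by the protocadherins Cdhr2 and Cdhr5, which are held by a complex of the scaffold harmonin (Ush1c) and the motor myosin 7b (Myo7b). The members Cdhr2, Cdhr5, Ush1c and Myo7b belong to the intermicrovillar adhesion complex and are here called the tip link complex. Further proteins that bind harmonin or myosin 7b were listed apart as partners. Surface colonocytes carry the tallest brush border of the colonic crypt.

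The proximal promoters of Vil1 and Cdhr2 are shown because Vil1 gives the Cre driver of both genotypes and Cdhr2 stands for the tip link genes, whose ratios differed from those of the actin core genes. Both are RefSeq windows of the assembly GRCm38.p6, from 250 bases before to 50 bases after the start of the gene, on the plus strand at chr1:74409134-74409433 for Vil1 and chr13:54701213-54701512 for Cdhr2. Capitals mark a match to a CArG box, the element bound by the serum response factor Srf, in Vil1 and to the letters CAAAGTC, a core of HNF4 sites, in Cdhr2.
Vil1: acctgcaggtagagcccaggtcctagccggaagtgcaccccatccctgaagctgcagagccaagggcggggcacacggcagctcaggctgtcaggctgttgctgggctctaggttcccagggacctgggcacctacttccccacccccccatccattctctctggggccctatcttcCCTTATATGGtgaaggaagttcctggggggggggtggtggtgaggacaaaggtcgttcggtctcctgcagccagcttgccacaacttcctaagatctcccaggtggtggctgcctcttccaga
Cdhr2: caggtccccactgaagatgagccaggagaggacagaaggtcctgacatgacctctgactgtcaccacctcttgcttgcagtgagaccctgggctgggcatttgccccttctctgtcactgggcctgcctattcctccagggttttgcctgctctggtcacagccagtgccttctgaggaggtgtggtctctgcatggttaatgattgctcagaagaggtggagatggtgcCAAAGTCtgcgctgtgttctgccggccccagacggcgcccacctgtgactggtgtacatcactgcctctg

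The CArG match in Vil1 lay from base -73 to base -64 before the start and the CAAAGTC match in Cdhr2 from base -20 to base -14. Both strands were searched in 10 windows of 8 members. A CArG box was found in 1 of these windows, against 1.63% of 32851 promoter windows of the mouse, and CAAAGTC in 1 (4.44% of all windows). The letters TTTATNG, a core of CDX sites, were found in 1 window of Espn (10.9% of all windows) and the TATA box TATAAA in none (13.6%). The letters TTTATNG and TATAAA can overlap on opposite strands. These matches describe the letters of the windows only.

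Each array was scaled so that the trimmed mean of its signals was 2500, and ratios are given as EP4 cKO over Villin-Cre on the log2 scale. The error of a signal is that estimated by the scanner software for the spot, and the error of a ratio joins those of both signals. It was between 0.20 and 0.23 on the log2 scale for the 14 probes and is used for 95% intervals, which cover the measurement of a spot and not the spread between mice. Over all 14669 genes the median log2 ratio was -0.10, 4.86% were higher in EP4 cKO by more than 2-fold and 7.87% lower by as much. Among the 1467 brightest genes the median was -0.02. The brighter probe of Ptger4 had a signal of 6227 in Villin-Cre and 5661 in EP4 cKO (log2 ratio -0.14) and the dimmer probe 393 and 592 (0.59), so neither probe was lower by 2-fold in EP4 cKO and each direction rests on the labels. Whether the probes lie in the floxed part of the gene was not checked, and a probe outside it would not test the labels.

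Of the 10 members, 1 (Eps8) was more than 2-fold higher on the EP4 cKO array, against 4.86% of all genes, and 0 were more than 2-fold lower, against 7.87%. At 1.5-fold, 5 members were higher (Eps8, Pls1, Espn, Ezr and Myo1a), against 9.84% of all genes, and 0 lower, against 18.6%. At 3-fold, 0 members were higher (2.21% of all genes) and 0 lower (3.63%). The median log2 ratio of the members was 0.56, which is 0.66 above the median of all genes. The members fell into distinct ranges by their role. This division was made after their values were seen, so it describes the ratios and does not test a difference between roles. The 6 genes of the actin core and its link to the membrane had log2 ratios between 0.52 and 1.45, whereas the 4 genes of the tip link complex lay between -0.08 and -0.03. The gap between the lowest of the former (Vil1) and the highest of the latter (Cdhr5) was 0.56.

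**Figure D1:**
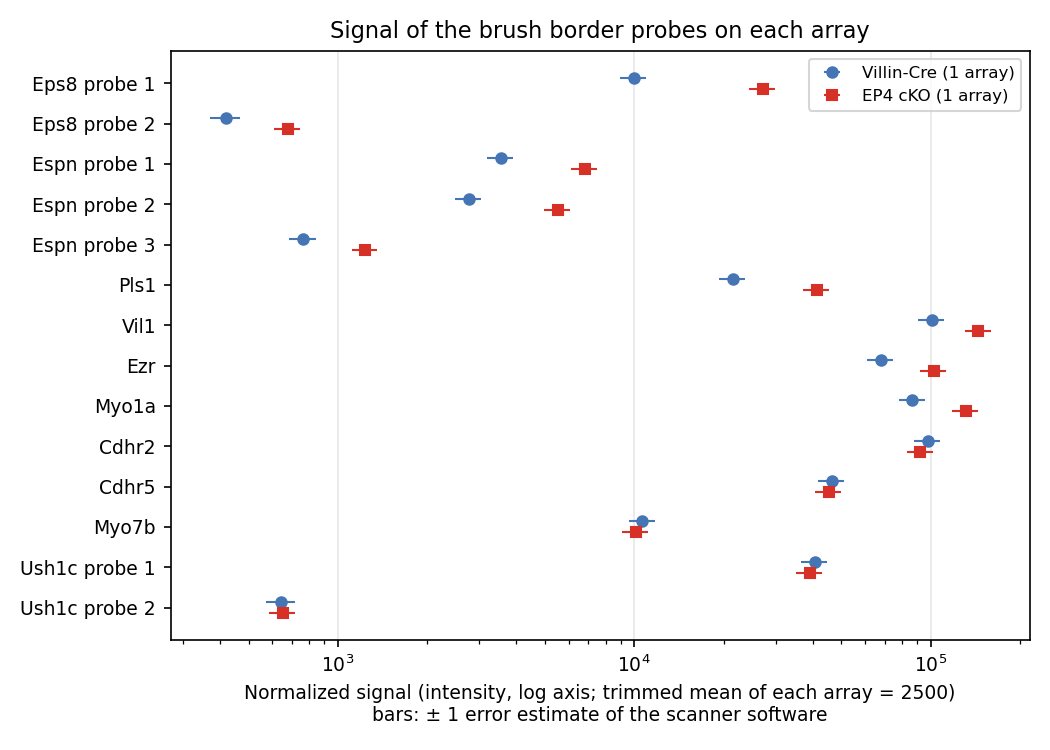
Normalized signal (x axis, intensity on a log axis) of the 14 brush border probes on the Villin-Cre array (circles) and the EP4 cKO array (squares), 1 array each, with bars of 1 software error. Every probe of Eps8, Espn, Pls1, Vil1, Ezr and Myo1a was brighter on the EP4 cKO array, and those of Cdhr2, Cdhr5, Myo7b and Ush1c overlapped within their errors.

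Eps8, which caps the growing ends of the filaments, rose from a normalized signal of 9951 ± 995 on the Villin-Cre array to 27189 ± 2719 on the EP4 cKO array. This is a 2.73-fold rise, a log2 ratio of 1.45 with an interval of 1.05 to 1.85. The ratio was higher than that of 97.4% of all genes. A second, dimmer probe of Eps8 had 419 ± 49.7 and 679 ± 69, a log2 ratio of 0.70 with an interval of 0.26 to 1.14. Both probes were brighter on the EP4 cKO array, but they differed by 0.75 on the log2 scale, and only the brighter one was past 2-fold. The mean of both was 1.07.

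Espn, an actin bundler that lengthens parallel bundles, had 3 probes. The brightest had a signal of 3550 ± 356 in Villin-Cre and 6795 ± 680 in EP4 cKO, a log2 ratio of 0.94 with an interval of 0.54 to 1.34. The others had log2 ratios of 1.0 (2760 ± 278 and 5527 ± 553) and 0.69 (764 ± 81.2 and 1236 ± 124). All 3 probes of Espn were brighter on the EP4 cKO array and their ratios spanned 0.31, which is less than the width of their intervals. Pls1, the plastin of the intestinal brush border, had 21472 ± 2147 and 41289 ± 4129, a log2 ratio of 0.94 with an interval of 0.54 to 1.34. Thus Espn and Pls1 lay just within 2-fold, with ratios above those of 94.5% and 94.6% of all genes.

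Vil1, the bundling and severing protein whose promoter drives Cre in both genotypes, had a signal of 100947 ± 10095 in Villin-Cre and 144885 ± 14489 in EP4 cKO. Its log2 ratio of 0.52 (1.44-fold) had an interval of 0.12 to 0.92 and was the lowest of the 6 actin core and membrane link genes. Ezr, the linker between membrane and actin, had 67819 ± 6782 and 102544 ± 10254, a log2 ratio of 0.60 (interval 0.20 to 1.0). Myo1a, the membrane motor, had 86737 ± 8674 and 131097 ± 13110, likewise a log2 ratio of 0.60 (interval 0.20 to 1.0). The intervals of Vil1, Ezr and Myo1a lay above 0 but overlapped those of the tip link genes. The ratios of these 3 genes were above those of 88.8%, 90.4% and 90.3% of all genes.

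**Figure D2:**
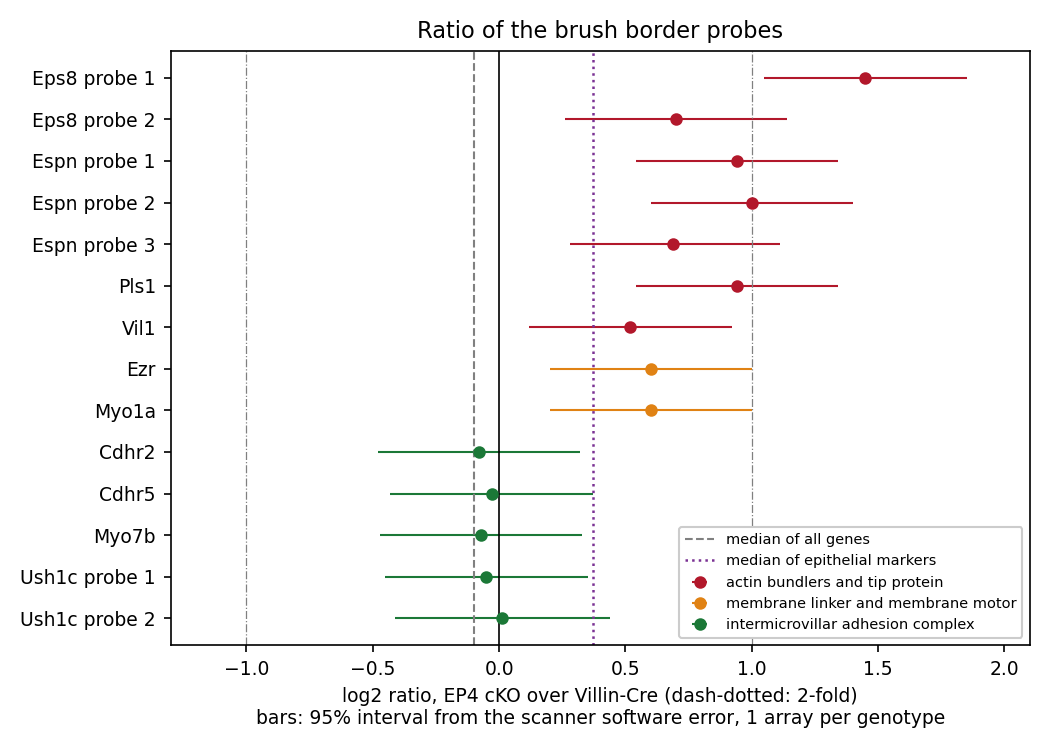
Log2 ratio of EP4 cKO over Villin-Cre (x axis) for each of the 14 brush border probes, coloured by role, with 95% intervals from the scanner software error of 1 array per genotype. Probes of the actin core and membrane link genes lay between 0.52 and 1.45, whereas the 5 probes of the tip link complex lay between -0.08 and 0.01, near the median of all genes (-0.10) and below that of the epithelial markers (0.37).

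The 4 members of the tip link complex had nearly equal signals on both arrays. Cdhr2 had 97726 ± 9773 in Villin-Cre and 92225 ± 9223 in EP4 cKO, a log2 ratio of -0.08 with an interval of -0.48 to 0.32. Cdhr5, its partner on the neighbouring microvillus, had 46313 ± 4631 and 45230 ± 4523, a log2 ratio of -0.03 (interval -0.43 to 0.37). The scaffold Ush1c had 40616 ± 4062 and 39115 ± 3912 (log2 ratio -0.05, interval -0.45 to 0.35) by its brighter probe and 645 ± 71.7 and 652 ± 66.7 (0.01, interval -0.41 to 0.44) by its dimmer one. The motor Myo7b had 10639 ± 1064 and 10118 ± 1012, a log2 ratio of -0.07 (interval -0.47 to 0.33). All 5 probes lay within 0.10 of each other, each interval included 0, and no difference between the arrays larger than the software error was seen. The intervals of Eps8, Espn and Pls1, by their brightest probes, did not overlap any interval of the tip link genes. The 4 ratios were above those of 51.3% (Cdhr2), 55.1% (Cdhr5), 53.6% (Ush1c) and 52.2% (Myo7b) of all genes, that is, in the middle of them.

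The median ratio differed between 10 bins of mean signal with near-equal numbers of genes. It was 0.00 in the dimmest bin, -0.25 in bin 3 from the dimmest and -0.02 in the brightest. Each member was therefore also placed among the 1467 genes of its own bin. Eps8 lay above 97.8% of the genes of its bin, Espn above 96%, Pls1 above 95.2%, Ezr above 89.3%, Myo1a above 89.2% and Vil1 above 87%. For the tip link genes these shares were 43.4% (Cdhr2), 49.1% (Cdhr5), 46.7% (Ush1c) and 51% (Myo7b). The shares of the 6 actin core and membrane link genes all lay above those of the tip link genes, as among all genes, although the order within each role differed.

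The partners of the tip link complex did not share its narrow range. Of the list of further tip link genes and their relatives, 5 of 6 had a value, with a median log2 ratio of 0.05, 0 more than 2-fold higher and 0 lower. With 75th percentile scaling, a trimmed mean over all spots, normexp with quantile normalization or loess on mean signal, 1 was more than 2-fold higher. On the E1A scale 3 were higher, and relative to the epithelial markers 1 was lower. Anks4b, the scaffold that joins harmonin to myosin 7b, had a signal of 6558 in Villin-Cre and 12940 in EP4 cKO, a log2 ratio of 0.98 just within 2-fold. Its ratio was past 2-fold with 75th percentile scaling (1.14) and on the E1A scale (2.05). Calml4, a light chain of myosin 7b, had 30613 and 39607 (0.37). Whrn, a scaffold of the sensory hair bundle, had 2564 and 1514 (-0.76), and Ush1g had 638 and 661 (0.05). The ratio of Anks4b was 1.01 to 1.06 above those of the 4 tip link members. It lay within the range of the actin core and membrane link genes (0.52 to 1.45), and that of Calml4 lay between both ranges. The narrow range therefore holds for the 4 members and not for their partners.

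**Figure D3:**
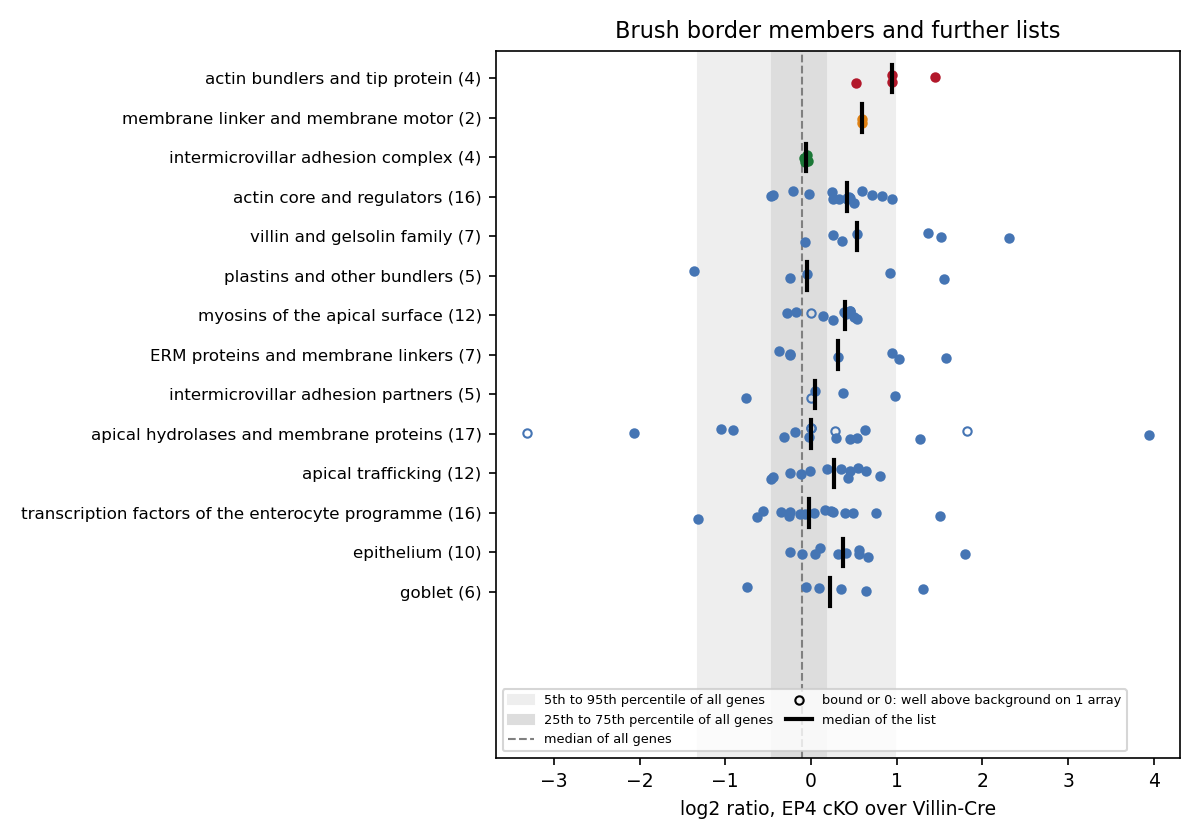
Log2 ratio of EP4 cKO over Villin-Cre (x axis) of the genes of each list, with the number of genes with a value in brackets, 1 array per genotype, list medians as black bars and the spread of all genes in grey. Filled points were measured on both arrays and open points are bounds or held at 0. The medians of the actin bundlers and tip protein (0.94) and of the membrane linker and motor (0.60) lay above those of every further list shown, and the median of the tip link complex (-0.06) lay below them.

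Among the other proteins of the actin core, 16 of 18 genes had a value, and 0 were more than 2-fold higher or lower. Their median log2 ratio was 0.42, against -0.10 over all genes. The actins themselves had log2 ratios of 0.42 (Actb, 522663 and 701691) and 0.44 (Actg1, 138650 and 187566). Dimmer probes of Actg1 had 0.24 and 0.00, and the mean of its probes was 0.23. Cobl, an actin nucleator of the brush border, had 8974 and 17288 (0.95), and Eps8l3, a relative of Eps8, had 102632 and 182195 (0.83). The capping subunit gene Capza2 (0.71) and the tropomyosin gene Tpm3 (0.60) followed, whereas the capping subunit gene Capza1 (28933 and 21329, -0.44) and Twf2, the gene of a twinfilin (-0.47), lay lowest. The genes of the membrane-bending proteins had log2 ratios of -0.02 (Baiap2l1) and -0.21 (Baiap2l2). A dimmer probe of Tpm3 had a log2 ratio of -0.33.

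Of the 7 relatives of villin in the gelsolin family, 3 were more than 2-fold higher on the EP4 cKO array and 0 were lower, with a median of 0.54. Capg, which caps filament ends, rose from 11095 to 55054 (4.96-fold, log2 ratio 2.31). Vill, the villin-like gene, rose from 808 to 2317 (1.52) and Avil, the gene of advillin, from 353 to 907 (1.36). Scin, which severs filaments, had 16224 and 23573 (0.54). The ratios of Capg, Vill and Avil were larger than that of Vil1 itself. Relative to the median of the epithelial markers 2 of the 7 were more than 2-fold higher, without Avil. Of the 5 further bundlers, Lcp1, the plastin of leukocytes, rose from 547 to 1607 (1.55), while Pls3, the plastin of many solid tissues, fell from 4218 to 1636 (-1.37), and the median was -0.05. Lcp1 was within 2-fold as the mean of its probes (0.91). Actn4 had 50898 and 96503 (0.92) and Actn1 had 15286 and 12851 (-0.25).

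The myosins of the apical surface had a median of 0.40 over 12 of 13 genes, and 0 passed 2-fold in either direction. The highest ratios were those of Myo1c (0.54), a membrane motor like Myo1a, and of the light chain gene Myl12b (0.50), although a dimmer probe of Myl12b had 0.04. A dimmer probe of Myo1c was well above background only in EP4 cKO and gave no measured ratio. Myo5b, the motor that carries apical vesicles, had 29131 and 38166 (0.39) by its brighter and -0.26 by its dimmer probe. Of the relatives and partners of ezrin, 7 of 11 listed names had a value, with a median of 0.32, 2 genes more than 2-fold higher and 0 lower. Stk10, a kinase that activates ezrin, rose from 2694 to 8037 (2.98-fold, 1.58). Msn, the gene of moesin, an ezrin relative of leukocytes and vessels, rose from 346 to 705 (1.03), a rise within 2-fold after normexp with quantile normalization (0.86) and relative to the epithelial markers. Slc9a3r1, the scaffold that binds ezrin under the membrane, had 21973 and 42337 (0.95), with 0.93 in its other probe. Slk, another ezrin kinase, had 1880 and 1456 (-0.37).

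Enzymes and other proteins of the apical membrane went both ways. Of 21 listed genes 17 had a value (12 from both arrays and the rest from 1), with 3 more than 2-fold higher and 3 lower. The median of 0.00 fell on genes held at 0 because their bound would turn the direction. Apart from the E1A scale, other settings gave medians up to 0.50, with 2 to 5 genes higher and 2 to 4 lower. Tmigd1, an adhesion protein of the enterocyte surface, rose from 205 to 3137 (15.3-fold, log2 ratio 3.94), and Prom1, a protein of membrane protrusions, from 612 to 1474 (1.27). The dimmer probe of Tmigd1 was well above background only in EP4 cKO, with a log2 ratio of at least 2.99. The ratio of Tmigd1 was 3.46 as the mean of its probes and 3.14 after normexp with quantile normalization. Treh, the gene of trehalase, was well above background only in EP4 cKO, with a log2 ratio of at least 1.82. Anpep, aminopeptidase N, fell from 3856 to 1859 (log2 ratio -1.05). Akp3, an alkaline phosphatase of the intestine, was well above background only in Villin-Cre, with a log2 ratio of at most -3.31. Prom1 was within 2-fold relative to the epithelial markers (0.90). Anpep was within 2-fold after 75th percentile scaling (-0.90), a trimmed mean over all spots (-0.93), loess on mean signal (-0.92) and normexp with quantile normalization (-0.76). Genes of apical trafficking had a median of 0.27 over 12 genes, 0 of them past 2-fold, with Stx3, a syntaxin of the apical membrane, the highest (0.80), followed by Stk25 (0.64) and Vamp8 (0.55), and Stk26 the lowest (-0.47).

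Transcription factors of the enterocyte had a median of -0.02 over 16 of 17 genes, with 1 more than 2-fold higher and 1 lower. Prdm1 rose from 186 to 527 (1.5), and Hes1, a target of Notch, fell from 2170 to 869 (-1.32), or by 0.96 after normexp with quantile normalization. The log2 ratios of the caudal factors were -0.07 (Cdx1) and -0.25 (Cdx2), those of the nuclear receptors 0.23 (Hnf4a, and -0.66 in a dimmer probe) and -0.56 (Hnf4g), and that of Srf 0.26. Maf had 0.76 and Klf5 -0.63.

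The tissue was checked against markers of its cell types. All 10 epithelial markers were well above background on both arrays, with a median log2 ratio of 0.37, 8 above 0, 1 more than 2-fold higher and 0 lower. The summed signal of these markers was 2692300 in Villin-Cre and 3213820 in EP4 cKO. The marker past 2-fold was Krt20, the keratin of surface cells, with 146575 and 510711 (3.48-fold). Epcam (0.56) and Cldn3 (0.56) lay near Vil1, Ezr and Myo1a, whereas Cdh1 (-0.10) and Krt8 (0.05) lay near the tip link genes. Goblet cell markers had a median of 0.22 over 6 genes, with 1 more than 2-fold higher (Clca1, 1.31) and 0 lower. Muc2 (-0.06) and Tff3 (-0.75) lay below 0, and relative to the epithelial markers 0 goblet markers were more than 2-fold higher and 1 (Tff3) lower. Relative to the median of the epithelial markers, the 6 actin core and membrane link genes had ratios of 0.16 to 1.08 and the tip link genes of -0.45 to -0.40.

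All 5 fibroblast markers with a value were more than 2-fold lower on the EP4 cKO array, 3 of them by bounds, and their summed signal was 12911 in Villin-Cre and 292 in EP4 cKO. The EP4 cKO sum includes the signals of Col1a1, Col3a1 and Lum, which were not well above background there, so the sums give no measured ratio. Pdgfra was not well above background in either genotype. The smooth muscle markers were mixed, with a median of 0.38 over 5 genes and Cnn1 lower (-2.73), and Myh11, a defining marker, was not well above background. Of 7 immune markers 4 had a value (median 0.19), and Cd79a, Adgre1 and Lyz2 were not well above background. Neither were Cdh5 and Kdr of the endothelium nor S100b of enteric glia, although whole colon was labelled. The endothelial marker Pecam1 (172 and 152, -0.18) and the neuronal marker Elavl4 (1339 and 757, -0.82) were measured on both arrays. Where these markers moved beside the members, their part in the ratios was not tested. In whole tissue, fewer cells of a type and less RNA per cell cannot be told apart.

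The size of the ratios depended on the scaling. Scaling to the 75th percentile turned the sign of all 4 tip link genes (0.07 to 0.12) and brought Espn (1.09) and Pls1 (1.1) past 2-fold. Scaling to the E1A control spots moved the median of all genes by 1.0, to 0.90. It put the tip link genes between 0.99 and 1.04 and the other members between 1.59 and 2.52, with 41.7% of all genes then more than 2-fold higher. On that scale Anpep (0.02), Pls3 (-0.30) and Hes1 (-0.25) were no longer past 2-fold lower. The scalings and the centring shift every gene by the same amount and the filters touch only dim probes, so they cannot change the gap of 0.56 between the roles. Under the alternatives that can, it was 0.60 after normexp with quantile normalization, 0.60 after loess on mean signal and 0.54 with the mean of all probes. Because their sign turned with the scaling, no direction of change is given for the tip link genes.

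**Figure D4:**
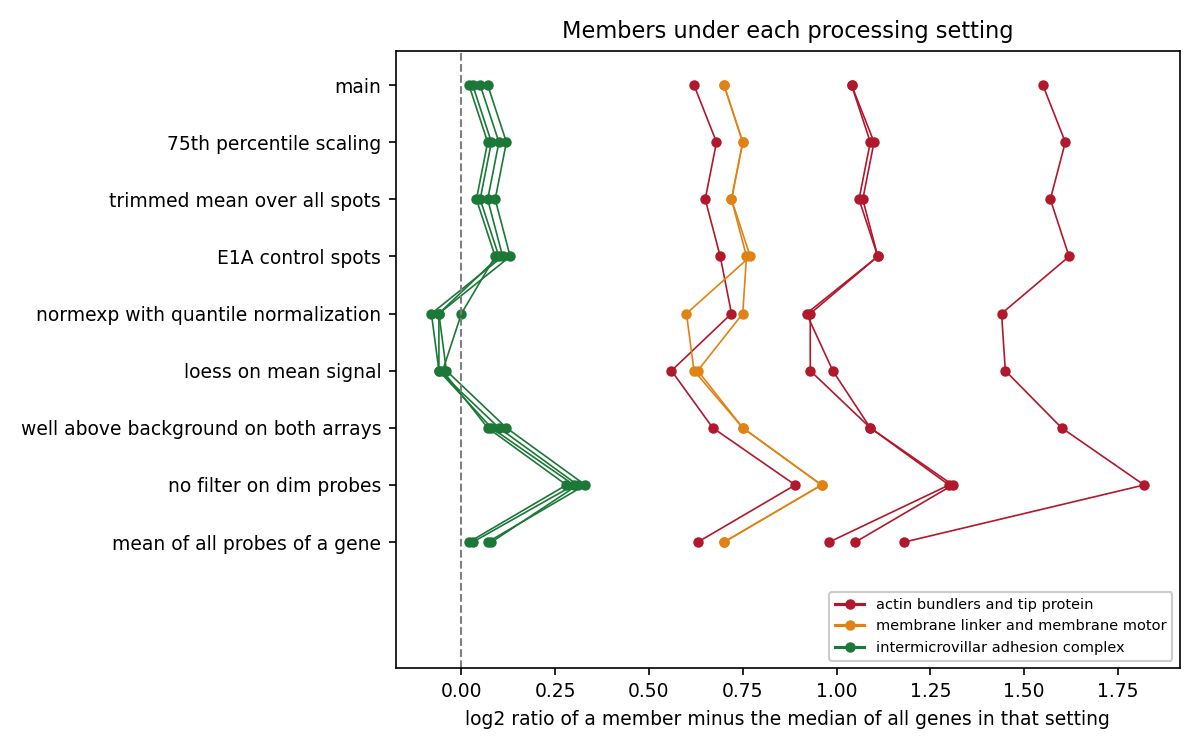
Log2 ratio of each of the 10 members minus the median of all genes in the same setting (x axis), for the main setting and each alternative with a median of all genes of its own (rows), with lines joining the values of a gene. The medians of the tip link genes (green) lay between -0.06 and 0.30. The rows of scalings and filters shift all members alike, and only normexp, loess and the mean of probes can change the distances between them.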

How the data were processed

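RNA of whole colon was hybridised to 1-colour Agilent arrays, 1 for each genotype. The deposited intensities are the processed signals of Agilent Feature Extraction (12.0.3.1 per the file headers, 11.5.1.1 in the submitters' processing notes), which had subtracted the background and detrended the signal within each array of 62976 spots. Following the authors' methods, each array was scaled to a trimmed mean of 2500 after 2% of the signals had been left out at each end (factors 3.45 and 2.68). Control spots and 195 outlier spots were left out. Probes were named through their RefSeq transcripts (32989 of 56593), and the brightest probe stood for a gene. A signal not well above background on 1 array was replaced by the floor of that array (125 in Villin-Cre and 57.8 in EP4 cKO) or its own signal where higher, which gives a bound, or 0 where the bound would turn the direction. Probes that were at background in both genotypes gave no value. Over 254 probes with 10 spots each, of which 9 or 10 were used, the median SD of the log2 ratio was 0.035.

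With 1 array per genotype, more than 2-fold was used as the call and no test was run. The members and lists were chosen with earlier results of these data known, and the division of the members by role was made after their values were seen. All members and probes are named, from each further list up to 4 genes with the largest ratio measured on both arrays, and a few fixed partners. Other genes named were chosen after their values were seen. Alternatives were other scalings, normexp (offset 50) with quantile normalization in limma 3.58.1, loess on mean signal (span 0.3), other filters, the mean of all probes, centring on epithelial markers and other thresholds. The scripts used Python 3.11.15, numpy 2.4.6, pandas 2.3.3 and R 4.3.3 and were tested on simulated data. Promoter windows are from RefSeq (8 of 10 members searched). The values of some listed genes are not reported here.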

Additional observations from a re-analysis of the deposited data

How the results depend on the processing

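The number of members more than 2-fold higher was 1 in the main setting (4.86% of all genes), 3 with 75th percentile scaling (6.39%), 3 with a trimmed mean over all spots (6.07%), 2 after loess on mean signal (7.61%) and 8 with the E1A control spots (41.7%). It was 5 at a threshold of 1.5-fold and 0 at 3-fold, and 0 members were past the threshold downwards in each of these settings. The median log2 ratio of the members (0.56) was 1.63 with the E1A control spots, where the median of all genes was 0.90, and 0.19 relative to the epithelial marker median. Of 90 values of single members under 9 alternatives, 69 moved by less than the software error and 21 by more. The sign of the tip link genes turned with several scalings, and Eps8, the member past 2-fold, kept its direction in all 9. The 21 were all 10 members with the E1A control spots, all 10 relative to the epithelial markers, and Eps8 as the mean of its probes. The E1A scale and the centring on the epithelial markers shift every gene by the same amount, and Eps8 moved because its dimmer probe has a lower ratio. Leaving out a replicate was not possible with 1 array per genotype, whose number limits the precision. No paired analysis was possible because each genotype had 1 array and no test was made.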
